A study of Caenorhabditis elegans with 2 samples.

Results

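The 3 strongest promoter sites of LIR-1 lay upstream of ZC506.1, F46H5.2 and tasp-1. These genes were chosen by signal: they stand next to the 3 highest peaks of the series' conservative peak set, out of 1209 peaks, here called sites, and 19973 protein-coding genes. The signal that chose them is given below as a description, with no test. LIR-1 is a relative of LIN-26, a zinc-finger factor needed for the fate of epidermal cells in Caenorhabditis elegans. The animals were of strain RW12318, in which CRISPR insertion at lir-1 on chromosome II put a TY1, EGFP and 3xFLAG tag on the protein, so every animal carried the tag. Growth was started from starved first-stage larvae, and the whole worms were collected 63 hours later as young adults. Chromatin was sheared by sonication to 200 to 800 bp and pulled down with anti-GFP antibody. The 2 libraries are biological replicates 1 and 2 of this 1 group, so there is no contrast between conditions. Chromatin from untagged animals was not analysed here, and precipitation of the tagged protein cannot be told apart from other causes of a peak. In whole animals, strong occupancy in few cells and weaker occupancy in many cannot be told apart either.

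A promoter is the sequence at and before the start of a gene where transcription factors and RNA polymerase assemble. In C. elegans the first stretch of many transcripts is replaced by a spliced leader, so an annotated 5′ end can lie downstream of the place where transcription starts. ZC506.1 (WBGene00013919, chromosome X, 9958960 to 9964747, plus strand) encodes an alpha-1,2-mannosidase by its RefSeq product name, an enzyme class that trims mannose from the glycans of secreted and membrane proteins. F46H5.2 (WBGene00018518, X, 7265648 to 7267893, plus strand) encodes a protein with a protein kinase domain, by the same source. tasp-1 (WBGene00010480, III, 10759307 to 10763021, plus strand) encodes a homolog of taspase, a protease that in mammals cleaves MLL histone methyltransferases and the large subunit of the general factor TFIIA. Coordinates are 1-based on ce11, and gene models are those of Ensembl.

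The sequence of the 3 sites is shown because sequence did not enter the choice of the genes. Each is the plus strand of the RefSeq WBcel235 genome, the same assembly as ce11, from the first base of the peak. Capitals mark every match, on either strand, of 10 fixed motifs and of 2 words that were picked after the sequences had been seen. The ZC506.1 site is chrX:9958623-9958868 with its summit at base 125, and the F46H5.2 site is chrX:7265002-7265274 with its summit at base 127. The tasp-1 site is chrIII:10759142-10759360 with its summit at base 115, and its last 54 bases, which belong to the first exon of tasp-1, are left out.
ZC506.1: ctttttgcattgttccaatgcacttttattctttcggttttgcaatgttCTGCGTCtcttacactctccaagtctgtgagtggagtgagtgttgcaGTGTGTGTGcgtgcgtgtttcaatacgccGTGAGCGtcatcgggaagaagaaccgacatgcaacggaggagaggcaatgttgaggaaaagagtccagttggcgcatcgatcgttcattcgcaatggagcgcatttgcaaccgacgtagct
F46H5.2: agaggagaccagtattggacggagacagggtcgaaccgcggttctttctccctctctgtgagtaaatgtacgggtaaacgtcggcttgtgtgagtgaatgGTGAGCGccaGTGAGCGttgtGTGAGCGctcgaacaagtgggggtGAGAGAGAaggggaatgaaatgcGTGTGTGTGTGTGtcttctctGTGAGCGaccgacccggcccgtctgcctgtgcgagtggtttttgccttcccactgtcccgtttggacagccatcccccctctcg
tasp-1: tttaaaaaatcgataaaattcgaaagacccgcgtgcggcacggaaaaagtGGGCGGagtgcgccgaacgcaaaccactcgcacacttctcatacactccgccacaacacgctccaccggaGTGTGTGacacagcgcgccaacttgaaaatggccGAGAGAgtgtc

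All 3 sequences held runs of alternating C and A. The word for these runs was picked after the sequences had been seen, so nothing is read from its presence at all 3. The word CACACAC, or GTGTGTG on the other strand, was present at ZC506.1 from 28 to 20 bp before the summit, at F46H5.2 from 42 to 54 bp after it and at tasp-1 from 6 to 12 bp after it. Over all 1209 sites it was in 14.3%, against 4.05% of stretches of the same length moved 500 bp to either side and 4.40% of 300 bp promoters of all protein-coding genes. Among the 20 strongest sites, from which the word was picked, 13 held it. The second word, CGCTCAC or GTGAGCG, touched the summit at F46H5.2, where it began 5 bp before the summit and ended 1 bp after it, and followed the summit directly at ZC506.1, from 1 to 7 bp after it. F46H5.2 had 4 copies of it in all, ZC506.1 had 1 and tasp-1 had none, while 6.04% of sites and 1.25% of promoters held it. Matches are letters in a sequence and are not binding sites.

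Of the 10 fixed motifs, 3 matched at any of the genes, and none matched at all 3 genes. The word CTGCGTC lay at ZC506.1 from 75 to 69 bp before the summit. It was in 16.2% of all sites, in 2.52% of the moved stretches and in 4.34% of promoters. GAGAGA matched in a pair of overlapping places at F46H5.2, from 19 to 26 bp after the summit, and once at tasp-1, from 40 to 45 bp after it. This word was in 38.9% of sites, 16.9% of moved stretches and 21.8% of promoters. GGGCGG matched once, at tasp-1, from 64 to 59 bp before the summit, and was in 12.3% of sites, 5.09% of moved stretches and 7.83% of promoters. The other 7 were searched on both strands in the same way and matched none of the 3 sites. They were the word TGATAA, the palindrome CACGTG, the word TTCCCGC, the TATA word TATAAA, the splice acceptor word TTTCAG, the spaced word GAANNTTC and the T run TTTTTTTT. Their shares over all sites ran from 6.70% for TTCCCGC to 27.3% for TTTCAG.

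The sites were rich in G and C and were single-copy sequence. The share of G and C was 48.8% at ZC506.1, 57.1% at F46H5.2 and 52.97% at tasp-1, against a median of 42.9% over all sites and 35.4% over the nuclear genome. Of the 1209 sites, 1169 had a lower share than F46H5.2, 1101 than tasp-1 and 934 than ZC506.1. None of the 216, 243 and 189 words of 31 bp in the 3 sites occurred at a second place in the genome, which was also so for 890 sites (73.6%). Lower-case letters in the reference, which mark repeats, covered 8.13% of the ZC506.1 site, 10.99% of the F46H5.2 site and 19.6% of the tasp-1 site, all below the median of 23.9% over all sites.

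The ZC506.1 site was the highest in both libraries. Its signal, the score that the authors deposited for the peak, was 468.8 for both libraries together. It was 254.1 in replicate 1 and 206.8 in replicate 2, with a replicate mean of 230.4 ± 33.4 (SD, n = 2). The site was ranked first of 23365 peaks in replicate 1 and first of 26648 in replicate 2. The F46H5.2 site had a signal of 448.2 for both libraries, 238.2 in replicate 1 and 194.6 in replicate 2 (216.4 ± 30.8, SD, n = 2). The tasp-1 site had 407.8 for both libraries, 205.0 in replicate 1 and 191.2 in replicate 2 (198.1 ± 9.81, SD, n = 2). The libraries put these 2 genes in different places. In replicate 1 they had ranks 2 and 3, while in replicate 2 they had ranks 3 and 4, where the rpl-3 site had rank 2 with 197.5.

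**Figure D1:**
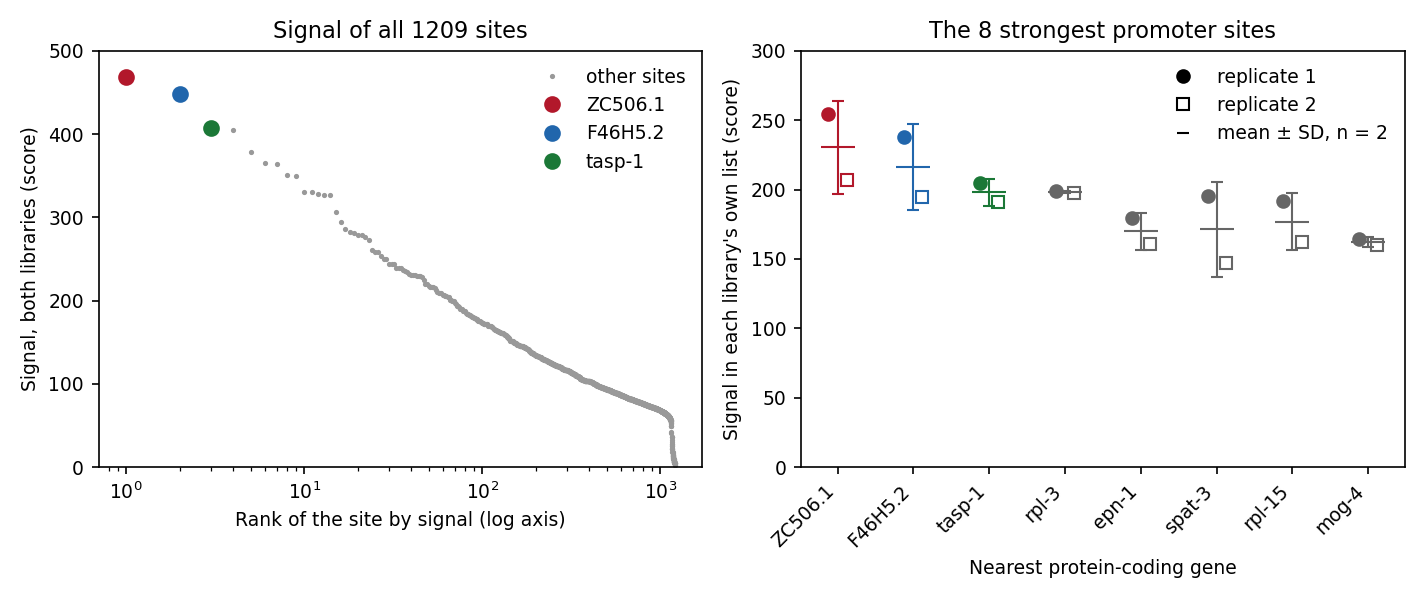
Left, signal of each of the 1209 sites for both libraries together (score) against its rank by signal on a log axis. Right, signal of the 8 strongest promoter sites in the list of each library, with bars for the mean ± SD over the 2 replicates. ZC506.1 and F46H5.2 lead with 468.8 and 448.2, and tasp-1 at 407.8 stands next to rpl-3 at 405.0.

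The choice of 3 genes does not fall at a gap in signal. Just inside it stood tasp-1 at 407.8, and just outside it stood rpl-3, which encodes a protein of the large ribosomal subunit, at 405.0 (198.2 ± 0.889, SD, n = 2). The next promoter sites had 364.9 near epn-1, 351.0 near spat-3, 349.0 at rpl-15 and 330.5 at mog-4, with replicate means of 169.8 ± 13.1, 171.3 ± 34.4, 176.8 ± 20.7 and 162.2 ± 3.27 (SD, n = 2). Within each library, ZC506.1 stood above F46H5.2, by 15.9 in replicate 1 and by 12.2 in replicate 2, although the SD of each gene over the libraries is larger than the distance between their means. F46H5.2 stood above tasp-1 by 33.1 and by 3.41. tasp-1 stood 6.24 above rpl-3 in replicate 1 and was 6.38 below it in replicate 2, so the order of these 2 sites differed between the libraries. These differences were not tested, since the same signal chose the genes. Over all sites the median signal was 86.4, and the middle 50% lay between 71.8 and 115.9.

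The signal for both libraries was close to the sum of the libraries' own signals. At the 3 sites the signal for both libraries was 1.02, 1.04 and 1.03 times the sum of the replicates' signals, in the order ZC506.1, F46H5.2 and tasp-1, and the median over 1184 sites with a peak in both libraries was 1.003. Series values and library values are therefore not set against each other. The scaling of the signal is not stated, so each mean ± SD over the libraries also holds any difference in scale between them. Within replicate 1's ranked list the ZC506.1 signal was 14.6 times the list's median of 17.5, and within replicate 2's it was 10.8 times the median of 19.2. The F46H5.2 site stood at 13.6 and 10.1 times and the tasp-1 site at 11.7 and 9.95 times. The ratio of replicate 1 to replicate 2 was 1.23 at ZC506.1, 1.22 at F46H5.2 and 1.07 at tasp-1, against a median of 1.02 over the 1184 sites and a middle 50% from 0.839 to 1.21.

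Each library's own ranked list was built by comparing 2 further lists, whose origin is not stated. They held signals of 118.8 and 137.2 at ZC506.1, 113.7 and 129.9 at F46H5.2 and 98.8 and 103.7 at tasp-1 in replicate 1. In replicate 2 they held 106.6 and 100.2, 99.5 and 94.7, and 99.9 and 93.8. In each case the pair summed to nearly the library's own value, for example to 255.96 against 254.1 at ZC506.1 in replicate 1. The tasp-1 pairs differed by no more than 6.15, and the widest pair was that of ZC506.1 in replicate 1.

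The lists agreed on the place of the 3 sites. By an overlap of at least 1 bp each site was present in all 8 lists, which was so for 36.3% of the 1209 sites (439), and each had the highest −log10 of the irreproducible discovery rate (IDR) that the list gives, 5, which 14.7% of sites (178) reached. Strong signal is what chose the genes, so nothing is read from these counts. Nor are the 8 lists separate calls. At each of the 3 sites all lists of the series held the same peak. The thresholded and ranked lists of each library also shared theirs. Where the overlap had to cover 50% of both peaks, tasp-1 was in 8 lists, and ZC506.1 and F46H5.2 were in 6 each. The lists that dropped out were those of replicate 2, where the peaks were narrower. The summits at F46H5.2 lay 520 bp upstream of the gene's 5′ end for both libraries, 519 bp in replicate 1 and 518 bp in replicate 2. Those at tasp-1 lay 51, 50 and 54 bp upstream, and those at ZC506.1 lay 213, 198 and 214 bp upstream. The replicates' summits were thus 1, 4 and 16 bp apart at F46H5.2, tasp-1 and ZC506.1, against a median of 22 bp over 1184 sites and of 5 bp over the 20 strongest.

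Width differed between the libraries more than position did. For both libraries the sites were 246 bp wide at ZC506.1, 273 bp at F46H5.2 and 219 bp at tasp-1. In replicate 1 they were 216, 249 and 190 bp, and in replicate 2 they were 111, 117 and 154 bp. ZC506.1 and F46H5.2 were thus the widest of the 3 in replicate 1 and the narrowest in replicate 2, with replicate means of 163.5 ± 74.2 and 183 ± 93.3 bp, while tasp-1 had 172 ± 25.5 bp (SD, n = 2). The summit lay off-centre in replicate 2, with 37 bases up to the summit and 80 after it at F46H5.2, and with 45 and 66 at ZC506.1. At tasp-1 it was near the centre in every list, with 79 and 75 bases in replicate 2.

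**Figure D2:**
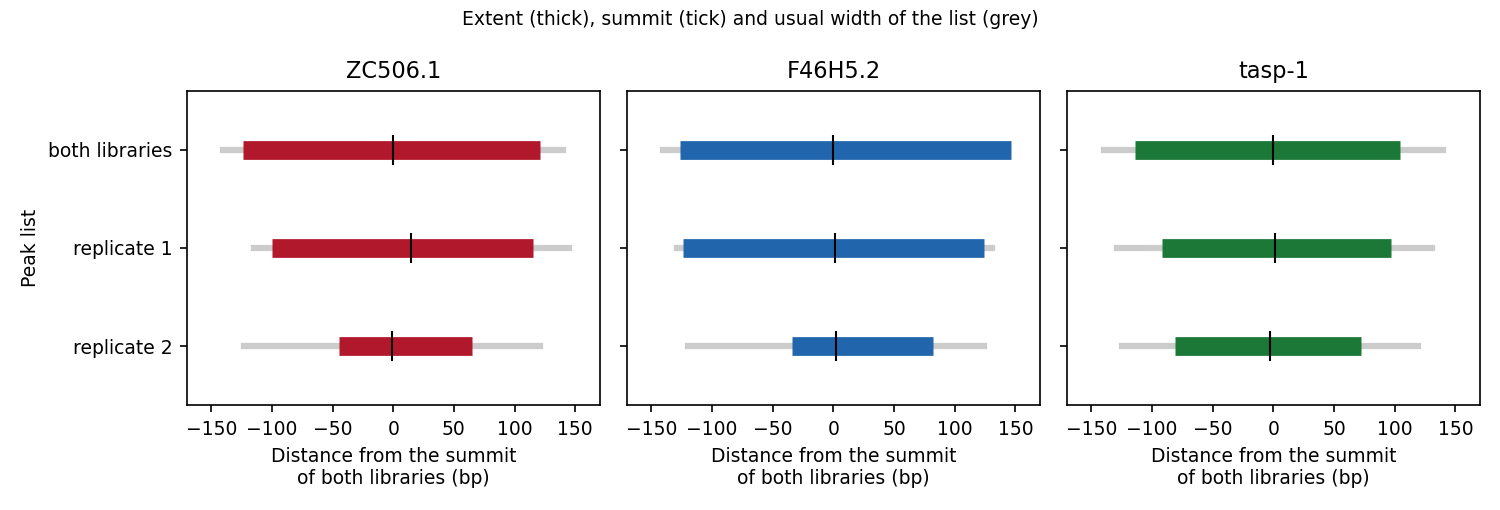
Extent of each site (thick bar) and its summit (tick) for both libraries and for each replicate, as distance in bp from the summit of both libraries. The grey line is the usual width of that list, 280, 260 and 244 bp from top to bottom, drawn around the summit. In replicate 2 the sites of ZC506.1 and F46H5.2 were 111 and 117 bp wide.

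Most peaks had 1 fixed width, and the 3 sites did not. In the conservative set 1132 sites (93.6%) were 280 bp wide, 76 were narrower and 1, near epn-1, was wider. The usual width was 260 bp in replicate 1's list and 244 bp in replicate 2's. Of the 20 strongest sites 18 were narrower, with a median of 206.5 bp, while in 4 equal groups from the strongest to the weakest signal the narrower share was 23.1%, 1.66%, 0.331% and 0%. Among the narrower sites ZC506.1, F46H5.2 and tasp-1 were at the wide end, since 73, 74 and 67 of all sites were narrower than each. In the 2 lists compared inside replicate 2, the peaks of ZC506.1 and of F46H5.2 were each 250 and 244 bp wide. In the list of the library itself they were 111 and 117 bp. The tasp-1 peaks were 250 and 102 bp in the compared lists and 154 bp in the library's list. In replicate 1 the compared peaks were narrower than the library's own of 216, 249 and 190 bp. They were 111 and 139 bp at ZC506.1, 130 and 174 bp at F46H5.2 and 99 and 125 bp at tasp-1. The width that a list gives for the same site thus depended on the list.

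**Figure D3:**
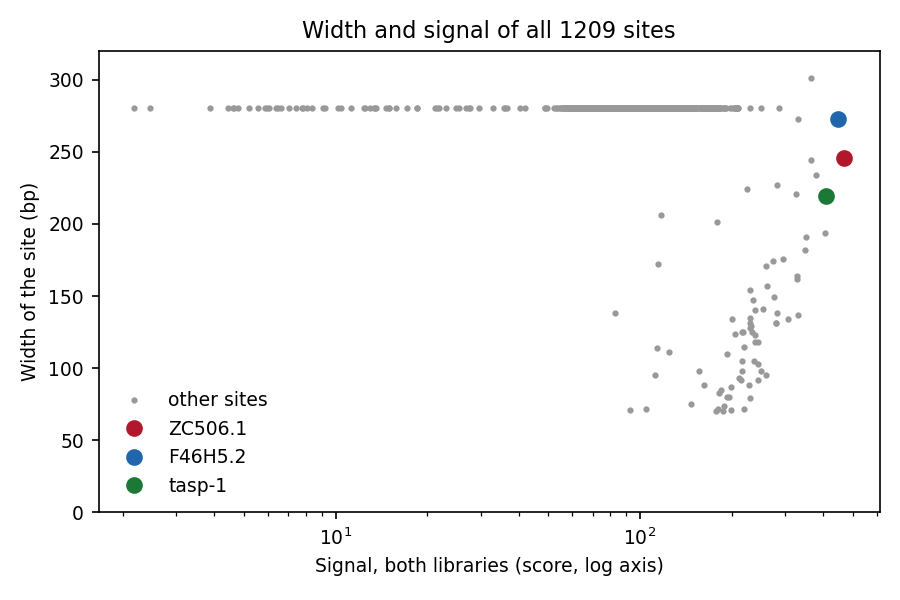
Width of each of the 1209 sites in bp against its signal for both libraries on a log axis. Most sites lie on the line at 280 bp, and the narrower ones have a signal of 82.8 or more, with ZC506.1, F46H5.2 and tasp-1 at the upper right at 246, 273 and 219 bp.

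Within 3 kb of the 5′ ends the site was by far the strongest peak at each gene. A peak of the conservative set lay in such a window at 8.89% of protein-coding genes, and a summit in the promoter window, 1000 bp upstream to 200 bp downstream, at 4.42%. The 3 genes were picked for having one. Each had 1 peak of the conservative set in the 3 kb window and no second. All other peaks there came from the ranked lists, which keep weak peaks, with 1 exception at tasp-1.

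ZC506.1 had 13 other peaks over the 8 lists. A place held by several lists counts once in each, so these counts exceed the number of separate places. In the list ranked between the libraries they lay 3130, 2242 and 759 bp upstream, with signals of 32.9, 47.7 and 36.2 and IDR of 0.749, 0.103 and 0.209. The peak near 2242 bp was found in both libraries, at 22.2 in replicate 1 and 26.4 in replicate 2, as was the one near 759 bp, at 23.7 and 21.4. The peak at 3130 bp had a counterpart in replicate 2 only, 3024 bp upstream (25.004). Replicate 2 also had peaks that replicate 1 lacked, 1255 bp upstream (23.9) and inside exons of the gene, 1270 and 1984 bp downstream (16.7 and 18.1). None of these weak upstream peaks of ZC506.1 was in a thresholded list.

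F46H5.2 had the fewest other peaks of the 3 genes, but no fewer peaks than the median gene. It had 3 other peaks over the 8 lists, and 0 in the list of replicate 1. A peak 718 bp downstream, in an exon, stood at 22.7 with IDR 0.866 between the libraries. Replicate 2 had peaks 1456 and 2932 bp upstream, at 25.7 and 15.4. For comparison, the median protein-coding gene had 2 peaks within 3 kb in the list ranked between the libraries. There ZC506.1 had 4, F46H5.2 had 2 and tasp-1 had 4, the main site included. The medians were 1 in the other ranked list of the series, 1 in replicate 1 and 2 in replicate 2. F46H5.2 had 1, 1 and 3 in these lists, the main site included.

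tasp-1 had 12 other peaks by the same count over lists, most of them inside the gene, and the replicates differed on the strongest. That peak lay in an intron, 818 bp downstream of the 5′ end, with a signal of 59.6 for both libraries and rank 1560 of 36486. In replicate 2 it stood at 46.7, rank 507 of 26648, with an IDR of 0.00533, and it was in that library's thresholded list at III, 10759971 to 10760214. In replicate 1 it stood at 18.97, rank 9182 of 23365, with an IDR of 0.696. Between the libraries its IDR was 0.302, in the other ranked list of the series it was 0.0299, and neither series set held it. Further peaks in introns lay 1835 bp downstream, with 33.7 for both libraries and 20.4 in replicate 2, and 1317 bp downstream in replicate 2, with 28.8. A peak 2548 bp upstream had 24.8.

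**Figure D4:**
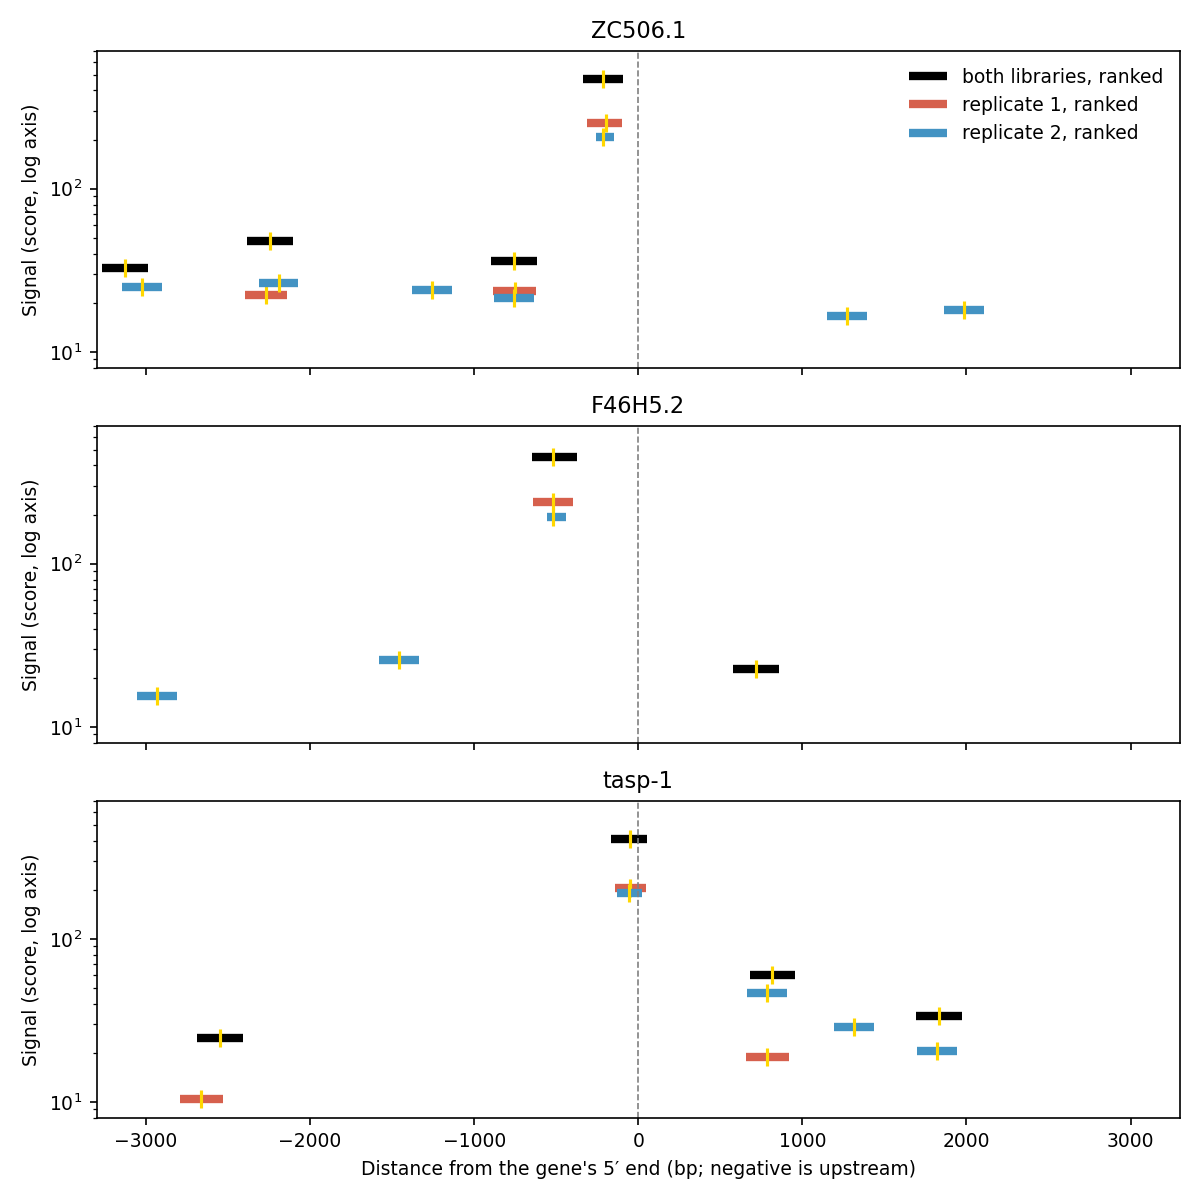
Peaks within 3 kb of the 5′ end of each gene in the ranked lists of both libraries and of each replicate. Bars span the peak, gold ticks mark its summit, the height is the signal on a log axis, and the dashed line is the 5′ end. The main sites stand at 407.8 to 468.8 for both libraries, and the strongest other peak is the one at 59.6 in tasp-1.

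The choice of transcript changed the distances at tasp-1 and F46H5.2. ZC506.1 has 1 annotated transcript, 213 bp after the summit. F46H5.2 has 6 transcripts with 4 different 5′ ends, 520, 524, 526 and 854 bp from the summit. tasp-1 has 3 transcripts with 3 different 5′ ends, and its summit lay 51, 129 and 413 bp upstream of them. The tasp-1 site was the 1 site of the 3 that overlapped its gene, by 54 bp, all of it in the untranslated first exon of the model that starts first. The ZC506.1 site ended 92 bp and the F46H5.2 site 374 bp before the gene.

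The genes around the sites differed in spacing and were alike in orientation. At all 3 the next protein-coding gene upstream lay on the minus strand, so that the site fell between gene starts that point away from each other. How common this orientation is over all genes or sites was not counted, so nothing is read from it. ZC506.1 was 4426 bp from cysl-1, which encodes a protein of the cysteine synthase family, and F46H5.2 was 5270 bp from lact-1, which encodes a protein with a beta-lactamase-related domain. Both gaps were over the 75th percentile of 2726 bp among 19968 protein-coding genes, whose median was 936 bp. tasp-1 was 784 bp from K01G5.10, which encodes a hydrolase of the haloacid dehalogenase type.

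The tasp-1 site therefore lay in the promoter windows of a pair of genes, 51 bp upstream of tasp-1 and 734 bp upstream of K01G5.10. Which of them, or both, it belongs to was not tested. Downstream of tasp-1, 109 bp after its end and on the same strand, began dpy-28, which encodes a condensin subunit of the dosage compensation complex of the X chromosome. The site lay 3875 bp upstream of the start of dpy-28. The summits at ZC506.1 and F46H5.2 lay 4214 and 4751 bp from the 5′ ends of cysl-1 and lact-1, outside the promoter windows of both. Downstream neighbours were pssy-1, a phosphatidylserine synthase gene that starts 844 bp after ZC506.1, and grd-7, a gene of the ground-like family on the minus strand, whose end overlaps that of F46H5.2 by 24 bp.

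No noncoding gene overlapped any of the 3 sites. The nearest ones were F46H5.10, 4164 bp from the F46H5.2 summit, C17G1.10, 8252 bp from that of ZC506.1, and K01G5.11, 11086 bp from that of tasp-1. On the other side they were F46H5.9 at 28083 bp, ZC506.5 at 11908 bp and Y39A1B.5 at 18140 bp. All 6 are annotated as ncRNA. ZC506.1 and F46H5.2 are on the X chromosome, which held 217 of the 1209 sites (17.9%) for 17.7% of the nuclear genome, and 8 of the 20 strongest sites. These 8 include the sites of ZC506.1 and F46H5.2, which were chosen by the same signal, so nothing is read from this count.

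Other genes of the pathways of ZC506.1 and tasp-1 were looked up in lists written around them. Of 24 genes for alpha-1,2-mannosidases and for folding and degradation of proteins of the endoplasmic reticulum, 5 carried a site in their promoter window (20.8%). The share of all protein-coding genes was 4.42%. Without ZC506.1 the count was 4 of 23 (17.4%). In the thresholded list of replicate 2 alone it was 2 of 24 (8.33%), where the share of all protein-coding genes was 2.39%. In the conservative set the genes with a site besides ZC506.1 were cdc-48.1, uggt-1, enpl-1 and crt-1. cdc-48.1, a homolog of the ATPase that extracts proteins for degradation, had a signal of 328.2 (166.9 ± 11.2, SD, n = 2). uggt-1, which reglucosylates misfolded glycoproteins, had 97.6 (47.1 ± 6.02). enpl-1, an endoplasmin chaperone gene, had 92.7 (39.4 ± 7.59), and crt-1, the calreticulin gene, had 72.1 (36.4 ± 0.381, SD, n = 2). The 6 other alpha-1,2-mannosidase genes of the list had none.

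Of 12 genes for taspase and for proteins of the MLL type complexes and TFIIA, 4 (33.3%) had a site. The share of all protein-coding genes was 4.42%. Without tasp-1, 3 of 11 (27.3%) had one. In the thresholded list of replicate 2 alone, 3 of 12 (25%) had one, against 2.39% of all protein-coding genes. set-16, listed as a gene of the MLL type, encodes a protein with a PHD-type domain by its RefSeq product name. Whether the taspase homolog cleaves this protein was not examined. Its site had a signal of 279.2, rank 21 of all sites, 184 bp upstream. The signal was 153.5 in replicate 1 and 127.6 in replicate 2 (140.6 ± 18.4, SD, n = 2). set-2, a methyltransferase gene of the SET1 type, had 139.8 (72.3 ± 13.5), and pqn-51, the gene for the large TFIIA subunit, had 95.9 (46.8 ± 12.7; SD, n = 2). The other 8 genes of the list had none. The lists are short, were drawn up from knowledge of tasp-1 and ZC506.1 with results of these data known, and were not tested. F46H5.2 has no list, since its product name gives a kinase domain and no pathway.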

How the data were processed

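Chromatin of 2 libraries from 1 group was measured by chromatin immunoprecipitation and sequencing. The 8 deposited peak lists are on ce11, per the labels, which is the same assembly as WBcel235. Per the manifests deposited with the samples, the lists were derived from filtered alignments and a control. Control reads were not analysed here. No source used here states the aligner, the caller of the peaks or a version. Each peak has a score, called signal, deposited by the authors, and its scaling is not given. The deposited ranked lists hold −log10 of the global IDR. Read depth is unknown.

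Positions were made 1-based. Genes came from Ensembl release 115, and genome sequence and product names from RefSeq. A site counted for a gene when its summit lay 1000 bp upstream to 200 bp downstream of the gene's 5′ end. Peaks were collected when they overlapped the 3 kb on either side, and lists shared a site at 1 bp of overlap. Sequence copies were counted over 31 bp words on both strands. The functions were tested on simulated data. Python 3.11.15, pandas 2.3.3 and NumPy 2.4.6 were used. The genes, gene lists and motifs were chosen with earlier results of these data known, and the named genes are the 3 genes, the neighbours on either side, list members with a site and the 5 promoter sites next in signal. The genes that follow the 3 genes downstream, pssy-1, grd-7 and dpy-28, were named after their values were seen. No test was run, because the signal chose the genes and there is only 1 group. The alternatives were other peak sets, windows, overlap rules, 5′ ends and single libraries.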

Additional observations from a re-analysis of the deposited data

How the results depend on the processing

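The signal of the 3 sites was the same in both series sets. Restriction to the stronger 50% of sites could not change it, since the sites were chosen by signal. With 1 library left out, the mean becomes the other library's value, which with 2 libraries always lies within 1 SD and says nothing of stability. With an overlap of 50% of both peaks, ZC506.1 and F46H5.2 were in 6 lists each instead of 8, and tasp-1 stayed at 8. With summits within 50 bp, all 3 were in 8. Summits moved with the list: that of ZC506.1 stood at -198 bp in library 1, that of F46H5.2 at -519 and -518 bp in libraries 1 and 2, and that of tasp-1 at -54 bp in library 2. Widths moved more, to 111 bp for ZC506.1 and 117 bp for F46H5.2 in library 2, and to 190 and 154 bp for tasp-1 in libraries 1 and 2. Counted over the 8 lists, 11 peaks were left within 1000 bp of the 5′ end for ZC506.1 and 13 for tasp-1. Within 5000 bp F46H5.2 had 17. A short window of 50 bp on either side of the summit held 0 matches of the fixed motifs at ZC506.1 and 1 at tasp-1, and a longer one of 150 bp on either side held 4 at F46H5.2. In the thresholded list of library 2 alone, 2 of 24 genes of the endoplasmic reticulum list (8.33%) had a site instead of 5. That list has 580 peaks, and the share of all protein-coding genes fell with it, from 4.42% to 2.39%. In the list of library 1 alone, 4 genes of the endoplasmic reticulum list and 4 of the taspase list had a site. The share of all protein-coding genes was not counted for library 1. Smaller windows hold fewer peaks and motif matches by construction; for the other changes the cause was not tested. No paired analysis was possible because the study has 1 group, so no contrast between groups can be paired. With 2 libraries of unknown depth, an SD rests on 2 values, and no interval can be set for counting error.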

Other observations

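Over all 1209 sites, split into 4 equal groups from the strongest to the weakest signal, the CA word described above was in 17.5%, 14.2%, 14.6% and 10.9%. Without the 20 strongest sites, from which the word was picked, it was in 40 of the 283 other sites of the strongest group (14.1%). This was no higher than the 14.2% and 14.6% of the middle groups and above the 10.9% of the weakest. CGCTCAC was in 11.9% of the strongest group, in 10.2% of it without those 20 sites, and in 4.64%, 3.31% and 4.30% of the others. CTGCGTC, which was among the fixed motifs, had another order, with 14.9%, 17.2%, 20.5% and 12.3%. GAGAGA stood at 34.0%, 43.05%, 39.4% and 39.1%, lowest in the strongest group, although 9 of the 20 strongest sites (45%) held it. All these shares are over whole peaks. In the strongest group 23.1% of peaks were narrower than usual, against 1.66%, 0.331% and 0% in the others, so it has fewer bases to match. The values without the 20 strongest sites were added after seeing the data, and no relation with signal was tested.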
